A study of Mus musculus with 23 samples.

Results

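Kruppel-like factors are zinc-finger proteins that bind GC-rich and CACCC-type DNA and turn genes on or off through the cofactors they recruit. In the gut lining, Klf4 is known for its role in differentiating surface and goblet cells and Klf5 for its role in dividing crypt cells. Klf2 is best known from endothelium and resting T cells, and several members, Klf2, Klf4, Klf6 and Klf10 among them, are induced quickly by extracellular signals.

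The 10 family members examined here, Klf2, Klf3, Klf4, Klf5, Klf6, Klf7, Klf9, Klf10, Klf11 and Klf13, were taken by gene symbol from a table of 24917 gene loci, and each symbol stood at 1 locus. RNA of the colonic epithelium, which had been freed from the colon with EDTA, was sequenced after depletion of ribosomal RNA in 23 samples from male C57BL/6 mice, which the study's methods name C57BL/6J. The mice entered the regimens at 6 weeks of age and stayed on them for 43 weeks. LF mice received a diet with 10% fat, HF mice a diet with 60% fat, and HFLF mice were given the 60% diet during the first 15 weeks and the 10% diet during the other 28. Batch 1 held 4 LF, 3 HF and 4 HFLF samples, and batch 2 held 4 LF, 3 HF and 5 HFLF samples. The mice carried no transgene or deletion by the labels, and the study's methods give fewer mice per regimen than there are samples per diet in both batches together. It is therefore not established that each sample is a separate mouse. The p-values weigh a difference against the spread between these samples, which may not be the spread between mice. If samples of different batches share mice, the p-values of fits over both batches may be too small.

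Gene counts per library ranged from 29189922 to 46498521 in batch 1 and from 31607019 to 65320947 in batch 2, and the members took from 0.174% to 0.261% of them. Every member passed the expression filter in both batches. Levels are given as CPM, counts scaled to a common library total, with library sizes adjusted within a batch. The epithelial markers (Epcam, Cdh1, 3 keratins, Vil1 and Cdx2) summed to between 11630 and 15440 CPM over all samples. Endothelial markers summed to between 7.53 and 20.2 CPM, with up to 2 of 7 at 0 in a sample, and T cell markers to between 14.7 and 35.7 CPM. In bulk RNA, fewer cells of a type and less RNA per cell cannot be told apart.

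Klf2 lies on the plus strand at chr8:72319062-72321654 (mm10) and has 3 exons in its RefSeq-matched transcript. Klf4 lies on the minus strand at chr4:55527137-55532475 and has 5 exons. Of the 10 members, 8 had an upstream window in the RefSeq promoter table (GRCm38.p6), with none for Klf5 and Klf10. The windows of Klf2 and Klf4 are shown because these genes had no overlap between HF and LF samples in either batch. Each holds the 250 bases before the annotated start, 5′ to 3′ on the gene's strand, at chr8:72318812-72319061 for Klf2 and at chr4:55532476-55532725 for Klf4. Capitals mark matches on either strand to TGACG (the core of the cAMP response element), to CACGTG (an E-box) and to the MEF2 site.

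Klf2: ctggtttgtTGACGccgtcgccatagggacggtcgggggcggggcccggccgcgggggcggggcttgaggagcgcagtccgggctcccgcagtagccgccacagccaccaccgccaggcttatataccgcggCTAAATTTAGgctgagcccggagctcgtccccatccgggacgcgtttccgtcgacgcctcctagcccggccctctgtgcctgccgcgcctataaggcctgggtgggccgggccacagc

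Klf4: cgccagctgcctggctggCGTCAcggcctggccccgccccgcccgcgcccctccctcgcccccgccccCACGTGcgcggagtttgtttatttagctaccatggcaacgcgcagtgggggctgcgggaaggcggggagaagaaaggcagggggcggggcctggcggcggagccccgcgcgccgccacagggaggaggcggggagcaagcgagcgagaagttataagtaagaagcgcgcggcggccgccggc

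The Klf2 window held 1 TGACG match and 1 match to the MEF2 site, a letter pattern found in 2.92% of the 32851 windows of this length in the table. The Klf4 window held 1 TGACG match and 1 CACGTG match. TGACG stood in 17.8% of all windows and CACGTG in 6.02%. Neither window held the CArG box, which serum response factor binds and which stood in 1.47% of all windows. The GC-box letters GGGCGG, which Sp and Kruppel-like factors bind, were found 2 times before Klf2 and 4 times before Klf4, and in 32.7% of all windows. The letters CACCC were found 1 time before Klf2 and 0 times before Klf4, and in 52% of all windows. The GC content was 71.2% before Klf2 and 74.0% before Klf4, and between 59.2% and 78.4% over the 8 members. These matches are letters in a window and not measured binding.

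Levels can be compared between genes only per length, here as CPM per kilobase of the union of GENCODE exons. Klf4 was highest in LF samples, with 272 ± 26.9 (SD, n = 4) in batch 1 and 227 ± 16.6 (SD, n = 4) in batch 2. Klf6, a widely expressed member, followed with 164 ± 19.1 and 154 ± 12. Both stood above every other member in each LF sample. Klf5 came next, with 45.1 ± 3.63 in batch 1 and 42.2 ± 4.39 in batch 2. After it came Klf10, known as a target of TGF-beta signalling, Klf3, a repressor that recruits CtBP, and Klf9, known for its response to glucocorticoids, and the ranges of these neighbours overlapped, although with the longest RefSeq-matched transcript as length Klf10 stood above Klf3 and Klf9 in every LF sample. Klf2 stood at 27.3 ± 3.57 in batch 1, where its range overlapped those of Klf3 and Klf9. Klf13 and Klf2 overlapped in batch 2, at 19.1 ± 1.34 and 18.5 ± 1.14. Klf11, which recruits Sin3a, stood at 8.20 ± 1.59 and 8.96 ± 1.22, and Klf7, best known from neurons, was lowest at 0.985 ± 0.225 and 1.05 ± 0.111. In HF samples of batch 2, the mean of Klf2 was 7.13 ± 1.29 (SD, n = 3), whose range overlapped that of Klf11.

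**Figure D1:**
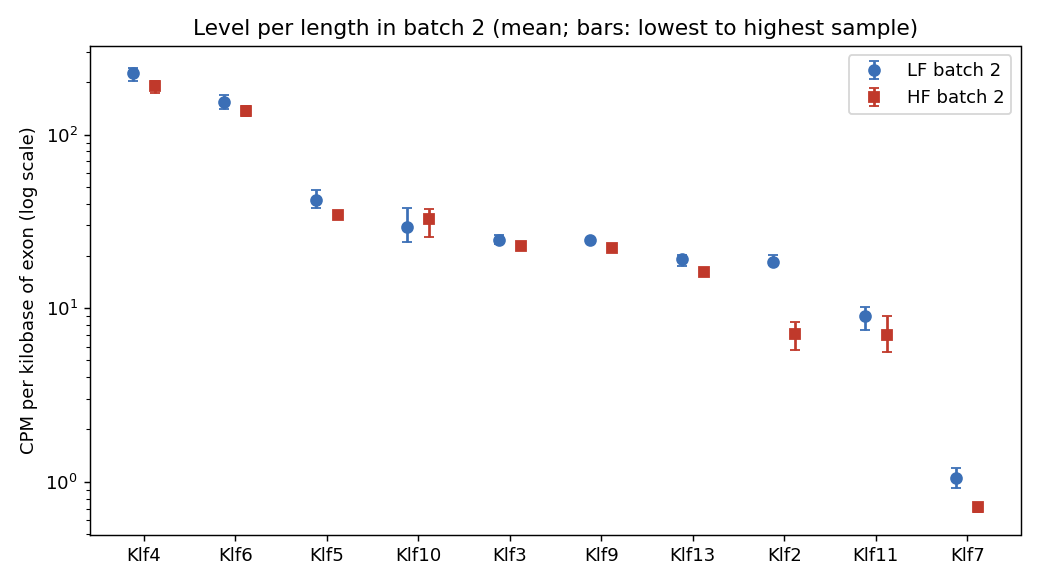
Level of each member in CPM per kilobase of exon (log axis) in the 4 LF and 3 HF samples of batch 2. Points are means and bars run from the lowest to the highest sample. Klf4 and Klf6 stand apart at the top, Klf7 at the bottom, and Klf2 is the member whose HF and LF ranges lie farthest apart.

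Klf2 had the largest difference between HF and LF mice among the members. In LF samples of batch 1 it measured 45.7, 55.1, 56.8 and 43.7 CPM, and in HF samples 19.9, 25.5 and 11.9 CPM. In batch 2 the LF samples measured 32.8, 37.2, 33.2 and 33.1 CPM and the HF samples 13.6, 15.3 and 10.6 CPM. Every HF sample was below every LF sample of its batch. The HF mean was 37.9% of the LF mean in batch 1 and 38.6% in batch 2. By edgeR's quasi-likelihood test with Benjamini-Hochberg adjustment, the level of Klf2 in batch 2 fell by 1.38 on the log2 scale (SE 0.144, adjusted p = 0.000784). The log2 difference of batch 1 was −1.40 (SE 0.257), which was not called (adjusted p = 0.137). The difference between the batches was 0.02 on the log2 scale (95% interval −0.61 to 0.65, adjusted p = 0.994). Klf2 was called in batch 2 under each of the 6 other settings and without each of the 12 libraries in turn. In batch 1 it was called without HF replicate 2 (log2 difference −1.66, adjusted p = 0.0284), the HF sample with the highest Klf2, and the adjusted p lay between 6.15e-05 and 0.136 over the other settings.

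Klf4 measured 811, 901, 869 and 716 CPM in LF samples and 579, 638 and 617 CPM in HF samples of batch 1. In batch 2 it measured 615, 709, 731 and 689 CPM against 588, 614 and 529 CPM. The groups did not overlap in either batch, although LF replicate 1 and HF replicate 2 of batch 2 were separated only narrowly. The log2 difference was −0.43 (SE 0.105, adjusted p = 0.139) in batch 1 and −0.25 (SE 0.0802, adjusted p = 0.0603) in batch 2. Neither was called in the main edgeR fit. Of the 6 other settings, Klf4 was called under 2 in batch 1 and under 1 in batch 2. Of the fits that left out a library, it was called in 1 of 11 in batch 1 and in 0 of 12 in batch 2. Klf2 and Klf4 are among the genes that the study itself listed for aged mice. Its text does not say which batch it used, and the group sizes of its sample list are those of batch 1, so the direction in batch 1 is not taken as independent evidence.

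Klf5 measured 230, 257, 240 and 212 CPM in LF samples and 172, 214 and 153 CPM in HF samples of batch 1, with HF replicate 2 inside the LF range. In batch 2 it measured 250, 197, 224 and 208 CPM against 174, 186 and 178 CPM, without overlap. In batch 2 it fell by 0.29 on the log2 scale (SE 0.0771, edgeR adjusted p = 0.0382), and the difference of batch 1 was −0.38 (SE 0.124, adjusted p = 0.163). The batch 2 call was lost in 6 of the 12 fits that left out a library, namely LF replicates 1 and 3, HF replicates 1, 2 and 3 and HFLF replicate 5, with an adjusted p of up to 0.160, and it had adjusted p = 0.0509 with only LF and HF samples in the fit.

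**Figure D2:**
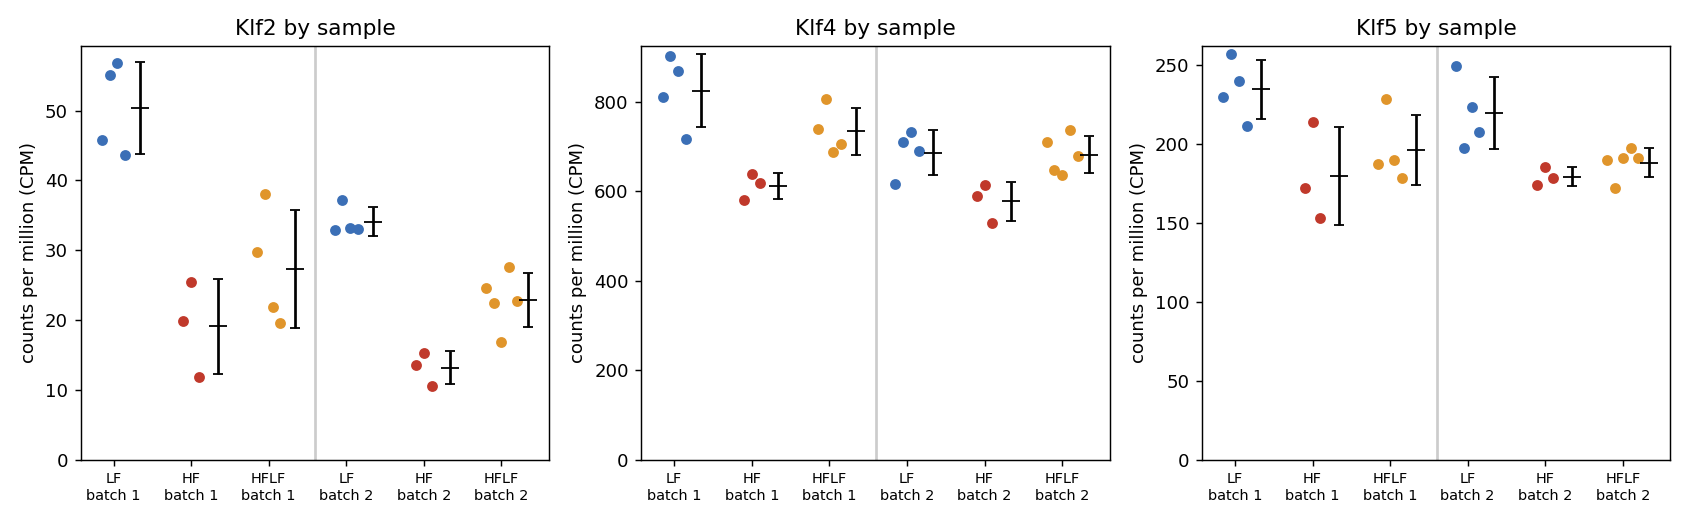
CPM of Klf2, Klf4 and Klf5 in each of the 23 samples (coloured points), with the group mean and SD beside them in black and the batches split by a grey line. For Klf2 the HF samples lie between 11.9 and 25.5 CPM in batch 1 and between 10.6 and 15.3 CPM in batch 2, below all LF samples.

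Klf7 measured 8.42 ± 0.897 CPM (SD, n = 4) in LF and 5.74 ± 0.335 CPM (SD, n = 3) in HF samples of batch 2, where it fell by 0.55 on the log2 scale (SE 0.144, edgeR adjusted p = 0.0382). In batch 1 its groups overlapped, at 7.93 ± 1.81 and 6.91 ± 1.22 CPM (log2 difference −0.20, SE 0.184, adjusted p = 0.514). The batch 2 call was lost without any 1 of LF replicates 1, 2 and 3 and HF replicates 1, 2 and 3, with an adjusted p of up to 0.207. A microRNA locus lies within the span of Klf7.

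Klf11 measured 33.5 ± 6.50 CPM in LF and 24.4 ± 5.94 CPM in HF samples of batch 1, and 36.6 ± 5.01 against 28.7 ± 7.28 CPM in batch 2. Its groups overlapped in both batches, and edgeR with all libraries called it in neither (adjusted p = 0.185 and 0.121). It was called by limma voom in batch 1 (adjusted p = 0.0442) and with the replicate number as a block in batch 2 (adjusted p = 0.0262), and by edgeR without HF replicate 2 of batch 1 (adjusted p = 0.0468) or without HF replicate 1 of batch 2 (adjusted p = 0.0385). The log2 differences of Klf13 were −0.19 (SE 0.107) and −0.24 (SE 0.0726, adjusted p = 0.0512), those of Klf9 −0.22 (SE 0.0954) and −0.15 (SE 0.0662), and those of Klf3 −0.12 in both batches. Klf13 overlaps an antisense locus, and without knowledge of whether strand was used in counting, reads of the pair cannot be told apart. Klf6 differed by −0.04 in batch 1 and −0.18 in batch 2. Klf10 was the member with opposite signs, −0.10 (95% interval −0.34 to 0.14) in batch 1 and 0.14 (95% interval −0.23 to 0.51) in batch 2. With all libraries, edgeR called 0 of Klf3, Klf6, Klf9, Klf10 and Klf13 in either batch, while limma voom called Klf3 in batch 1 (adjusted p = 0.0478), and edgeR called Klf13 in batch 2 without LF replicate 4 (adjusted p = 0.0173).

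**Figure D3:**
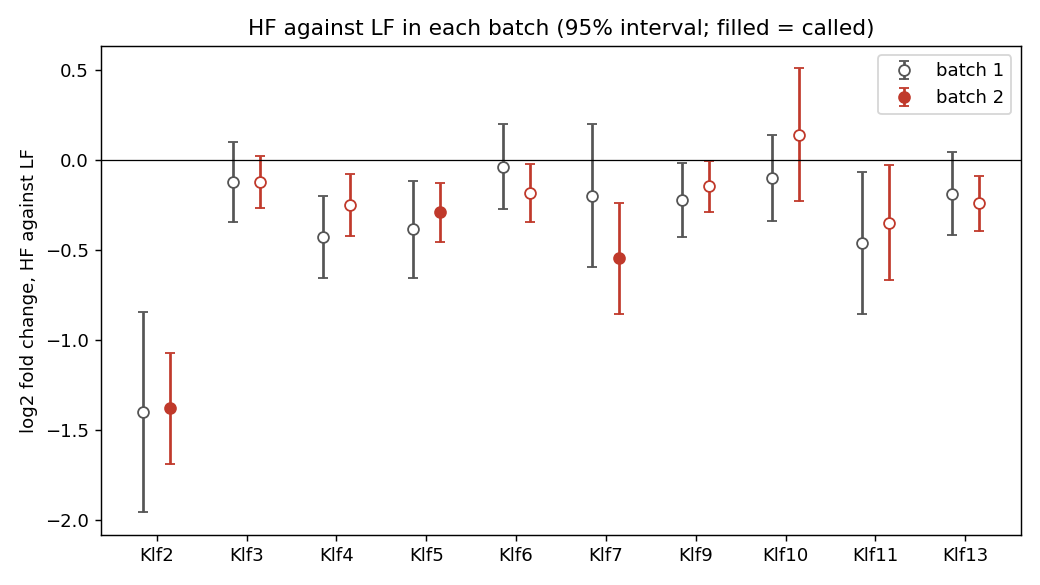
Log2 fold change of each member between HF and LF samples in batch 1 (grey) and batch 2 (red), with 95% intervals from edgeR. Filled points passed the adjusted p of 0.05 and the fold change of 1.2, which holds for Klf2, Klf5 and Klf7 in batch 2.

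Counted together, 0 of the 10 members were called between HF and LF samples of batch 1 by edgeR, as were 0% of the 14428 genes tested. At an unadjusted p under 0.05, 5 members passed, against 22.2% of all genes. DESeq2 called 2 members (Klf2 and Klf4) and 3.55% of all genes, and limma voom with sample weights called 5 (Klf2, Klf3, Klf4, Klf5 and Klf11) and 16.8% of all genes. In simulated counts of these sample sizes DESeq2 called unchanged genes more often than its nominal rate and more often than edgeR or limma did, but the counts were drawn with edgeR's dispersion estimates, which may favour edgeR. In batch 2, 3 members were called lower (Klf2, Klf5 and Klf7), against 4.40% of the 14377 genes tested. Groups did not overlap, with HF lower, for 2 members in batch 1 and 6 in batch 2, against 7.33% and 13.5% of all genes. The median log2 difference of the members was −0.21 and −0.25, beside 0.00 and −0.01 over all genes tested. With both batches in one fit, 5 members were called lower (Klf2, Klf4, Klf5, Klf7 and Klf11) against 9.11% of all genes, but Klf7 and Klf11 lost the call when 1 of several libraries was left out, with an adjusted p of up to 0.105 and 0.0807. The change between HF and LF differed between the batches for 0 members and 0% of all genes by edgeR, and for 0 members by DESeq2 and by limma, and 0 members had an unadjusted edgeR p under 0.05 for it.

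After the switch to the low-fat diet, Klf2 lay between the other groups. HFLF samples measured 29.7, 38.1, 21.9 and 19.6 CPM in batch 1 and 24.6, 22.5, 16.9, 27.6 and 22.7 CPM in batch 2. All were below the LF samples of their batch, while in batch 1 they overlapped the HF samples and in batch 2 they lay above them. The HFLF mean was 54.2% of the LF mean in batch 1 and 67.0% in batch 2. Against LF, the log2 difference was −0.88 (SE 0.230, edgeR adjusted p = 0.792) and −0.58 (SE 0.121, adjusted p = 0.399), and −0.72 with both batches in one fit (SE 0.135, adjusted p = 0.0883), so it was not called. DESeq2 called it in batch 2 (adjusted p = 0.00812), as did 4 of 6 other settings over both batches and the fits over both batches without HFLF replicate 2 or HF replicate 3 of batch 1. Against HF, Klf2 rose in batch 2 by 0.80 on the log2 scale (SE 0.138, edgeR adjusted p = 0.0102), and the difference of batch 1 was 0.52 (SE 0.252, adjusted p = 0.469).

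The HFLF mean of Klf5 also lay between the other groups, at 83.6% of the LF mean in batch 1 and 85.8% in batch 2. HF samples had 76.6% and 81.6%. From the HF to the LF mean, the HFLF mean of Klf5 stood at 29.8% of the way in batch 1 and 22.3% in batch 2. For Klf2 these values were 26.3% and 46.2%. Klf5 differed from LF by −0.26 (SE 0.114) and −0.22 (SE 0.0672) on the log2 scale, neither of which was called (edgeR adjusted p = 0.792 and 0.958), and from HF by 0.13 and 0.07. Klf4 reached 89.1% of the LF mean in batch 1 and 99.4% in batch 2, where HF samples had 74.2% and 84.1%. All HFLF samples were above all HF samples for Klf4 in both batches. Its log2 difference from HF was 0.26 in batch 1 (SE 0.105, edgeR adjusted p = 0.423), which was not called, and 0.24 in batch 2 (SE 0.0769, adjusted p = 0.0421), which passed the adjusted p but not the fold change of 1.2.

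Klf7 rose against HF in batch 2 by 0.59 (SE 0.139, edgeR adjusted p = 0.0181), and Klf11 by 0.53 (SE 0.143, adjusted p = 0.0258), with HFLF means of 8.68 ± 1.64 and 41.6 ± 4.97 CPM (SD, n = 5). Without HF replicate 2 or HF replicate 3 neither was called, and Klf11 also not without HFLF replicate 1, with an adjusted p of up to 0.118 for Klf7 and 0.166 for Klf11. In batch 1 the differences were 0.03 (adjusted p = 0.954) and 0.22 (adjusted p = 0.644).

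**Figure D4:**
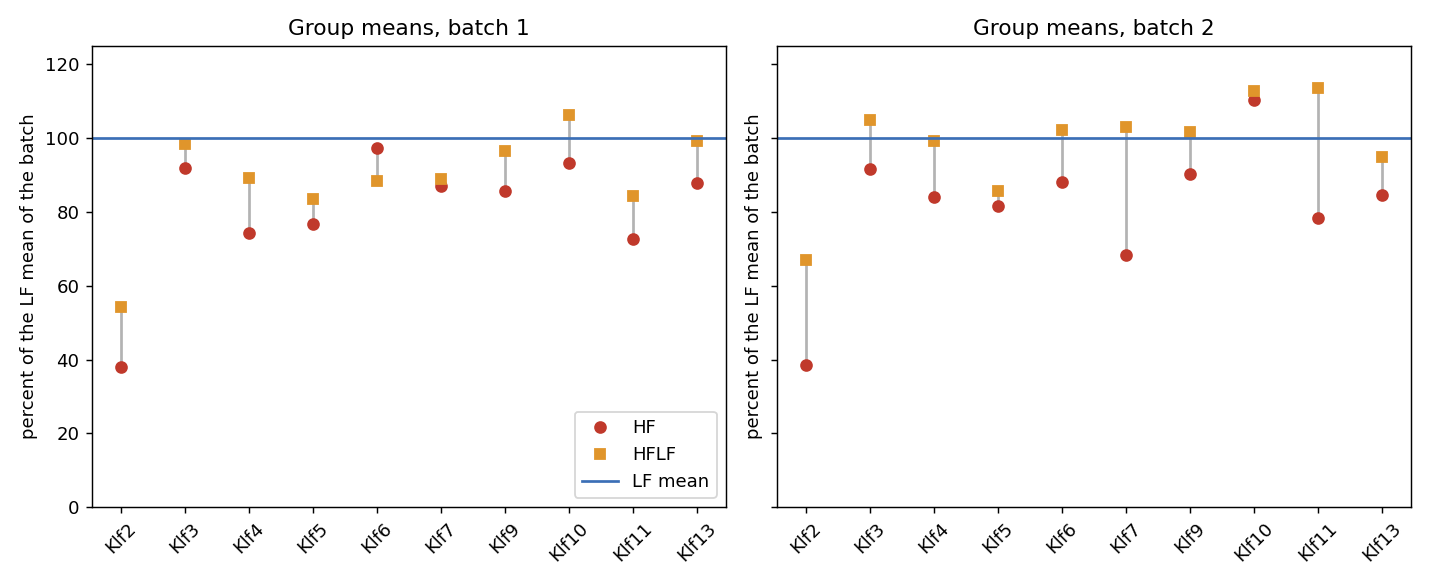
Mean of HF (circles) and HFLF samples (squares) as a percent of the LF mean of the same batch (line at 100), for each member. Klf2 is farthest below the line in both batches, at 37.9% and 38.6% in HF and 54.2% and 67.0% in HFLF samples.

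Of the 10 members, 0 were called between HFLF and LF by edgeR in batch 1, in batch 2 and in both, against 0%, 0.00696% and 0% of all genes. At an unadjusted p under 0.05, 2 members passed in each batch and in both (Klf2 and Klf5), against 5.29%, 4.65% and 4.11% of all genes. DESeq2 called 1 member in batch 2 (Klf2), against 0.111% of all genes, and limma called 0 there, and both called 0 in batch 1. Klf2 was the 1 member whose HFLF samples all lay below the LF samples in batch 1 and in batch 2, against 1.56% and 0.696% of all genes. Between HFLF and HF, 0 members were called in batch 1 (0.00693% of all genes; at an unadjusted p under 0.05, 1 member and 10.9%), with 0 also by DESeq2 and by limma. In batch 2, 3 members were called higher (Klf2, Klf7 and Klf11) against 8.89% of all genes, and in both batches 2 (Klf2 and Klf11) against 5.44%. HFLF samples all lay above HF samples for 1 member in batch 1 and 5 in batch 2, against 3.94% and 14.6%. These comparisons share the HF or the LF samples with the comparison of HF and LF.

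Among the members, Klf2 varied together with Klf4 and Klf5 across the 23 samples, with Pearson r = 0.83 and 0.84 of log2 CPM centred on the batch mean. Klf10 had r between −0.32 and 0.22 with the other members. These values describe samples that share diet groups and carry no test. The genes outside the members most like Klf2 by this measure were Plk2 (r = 0.95, a kinase), Acta1 (r = 0.89, an actin) and Jun (r = 0.88, a subunit of AP-1). For Klf4 they were Kif1c (r = 0.88), Pck1 (r = 0.87) and Ddx23 (r = 0.86), and for Klf5 Ano8 (r = 0.91), Foxo3 (r = 0.90) and Zfp316 (r = 0.90).

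Immediate early genes, which cells switch on within minutes of a stimulus, were set beside the members. In batch 2, 14 of 20 were called lower in HF samples and 0 higher, against 4.40% of all genes called lower, with a median log2 difference of −0.54, and Cyr61 (−1.38), Nr4a1 (−1.06) and Nr4a2 (−0.96) had the largest of these. In batch 1, 0 of 20 were called by edgeR and the median was −0.86. The study listed many of these genes for its aged mice, so, as for Klf2 and Klf4, their direction in batch 1 is not taken as independent evidence. Their summed level lay between 4739 and 6549 CPM in HF samples and between 7096 and 8531 CPM in LF samples of batch 2. Between HFLF and HF samples of batch 2, 16 of 20 were called higher, against 8.89% of all genes, with a median of 0.54. In batch 1, 0 of 20 were called between HFLF and HF, with a median of 0.38.

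The other genes of the pathway are given by list. Of the other Klf and Sp genes, 11 of 16 were tested in batch 1 and 12 in batch 2, and 0 were called between HF and LF in either, with medians of 0.27 and −0.19. Of the regulators and cofactors, which include the kinase Mapk7 and the Mef2 factors that act on Klf2 in endothelium, 0 were called between HF and LF in either batch, and 4 of 13 were called higher in HFLF than in HF samples of batch 2, led by Mef2d (0.43), Crebbp (0.43) and Ep300 (0.42). With both batches in one fit, Mef2d (−0.32) was called lower and Hdac2 (0.28), a histone deacetylase, higher in HF than in LF samples. Of genes known as Klf targets, 1 of 13 was called lower in HF samples of batch 2, Smad7 (−0.28), an inhibitor of TGF-beta signalling. Between HFLF and HF samples of batch 2, Smad7 (0.30) was called higher, and Thbd (−1.14), the anticoagulant receptor thrombomodulin, and Alpi (−0.71), an intestinal alkaline phosphatase, lower. Over both batches, Smad7 (−0.43) was called lower and Alpi (0.70) and Ccnb1 (0.61), a mitotic cyclin, higher in HF than in LF samples. Of core clock genes, 1 of 17 was called lower in HF than in LF samples of batch 2, Nr1d1 (−0.61), and 5 of 17 over both batches, led by Nr1d1 (−0.69), Dbp (−0.63) and Per3 (−0.53). Between HFLF and HF samples of batch 2, 4 of 17 clock genes were called higher, led by Nr1d1 (0.79), Per1 (0.62) and Per3 (0.61). Of all genes tested, 4.40% were called lower in HF than in LF samples of batch 2, and 9.11% over both batches. Between HFLF and HF samples of batch 2, 8.89% of all genes were called higher.

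Markers of other cell types that express Klf2 were set beside it. Endothelial markers summed to between 14.0 and 19.3 CPM in LF and between 7.53 and 14.8 CPM in HF samples of batch 1, and to between 13.1 and 20.2 and between 12.9 and 14.8 CPM in batch 2. Of those tested, 0 of 5 and 0 of 4 were called between HF and LF, with medians of −0.49 and −0.24. T cell markers had medians of −0.23 and −0.29, with 0 of 7 called in either batch. Myeloid markers had medians of −0.24 and −0.29 between HF and LF, with 0 of 4 called in either batch. Of 4 B cell markers, 0 were tested in batch 1 and 2 in batch 2, where 0 were called. In batch 2, 2 of 4 endothelial and 2 of 7 T cell markers were called higher in HFLF than in HF samples, against 8.89% of all genes. In batch 1, 0 of either list were called between HFLF and HF. The medians there were 0.48 for endothelial and −0.30 for T cell markers, and 6 of 7 T cell markers were negative. Smooth muscle markers ranged from 0.541 to 47.4 CPM and fibroblast markers from 2.86 to 51.3 CPM over the samples, with 0 of 5 called between HF and LF in either list and batch. The medians were 0.12 for smooth muscle and −0.14 for fibroblasts in batch 1, and −2.32 and −1.20 in batch 2, where all 5 of each list were negative, beside −0.01 over all genes. Between HFLF and HF samples the medians were 1.78 and 1.24 in batch 1 and 0.90 and 0.33 in batch 2, with 0 called. Between HFLF and LF samples they were 1.97 and 1.07 in batch 1 and −1.11 and −0.88 in batch 2, with 0 called. With both batches in one fit, 1 endothelial marker, Vwf (−0.49, edgeR adjusted p = 0.00628), and 1 fibroblast marker, Pdgfra (−1.20, adjusted p = 0.0444), were called lower in HF than in LF samples, and 0 of the T cell and smooth muscle markers. The part of these cells in the Klf2 difference was not tested.

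Markers of the epithelial cell types in which Klf4 and Klf5 are known to act were set beside these genes. Goblet cell markers had median log2 differences between HF and LF of −0.06 in batch 1 and 0.22 in batch 2, and 1 of 7 was called, Tff3 (0.63 in batch 2), a secreted peptide of mucus. Surface colonocyte markers had medians of −0.04 and 0.17, and markers of crypt stem and cycling cells 0.40 and 0.18, with 0 of 5 called in either list and batch. With both batches in one fit, the crypt markers Top2a (0.53) and Pcna (0.32), both known from dividing cells, were called higher in HF than in LF samples. The goblet markers Agr2 (0.58) and Tff3 (0.42) were also called higher. Of the 7 goblet markers, however, 4 were negative in this fit, with a median of −0.10. Summed goblet levels lay between 17730 and 24250 CPM in HF and between 19680 and 30960 CPM in LF samples of batch 1. In batch 2 they lay between 29320 and 32780 CPM and between 33380 and 40350 CPM. Tff3 (−0.47) and Agr2 (−0.49) were called lower in HFLF than in HF samples of batch 2. There, 4 of the 7 goblet markers were negative, with a median of −0.06, and their sum in HFLF samples lay between 26190 and 43980 CPM. The part of these cell types in the Klf4 and Klf5 differences was not tested.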

How the data were processed

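The authors deposited raw counts of reads per gene locus, one column for each of the 23 samples, without normalization. Per the labels, reads were trimmed with cutadapt 1.2.1, mapped to mm10 with STAR 2.5 and counted with featureCounts 1.5.0-p1. Strand use and the handling of multi-mapping reads are not given in the sources used here.

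Counts were fitted with edgeR 4.0.16 (R 4.3.3; TMM scaling, filterByExpr, quasi-likelihood F test) on the 3 diets of a batch together, then on both batches with batch as a covariate. A gene was called where its Benjamini-Hochberg adjusted p over all genes was under 0.05 and its fold change above 1.2. Alternatives were RLE scaling, DESeq2 1.42.0, limma 3.58.1 voom with sample weights, no expression filter, a replicate block, fits of 2 groups and leaving out each library. Functions were tested on simulated data, where fold changes were recovered. A limit on false calls set for that test was narrowly missed by DESeq2 in batch 1, so its additional calls may be less certain, but the counts were drawn with edgeR's dispersion estimates, which may favour edgeR. The likeness measure used log2(CPM + 0.5). All 10 members are named, and of other lists at most 3 called genes. The members and lists were chosen with earlier results of these data known. A count of 3 corresponds to between 0.0459 and 0.103 CPM, which covers counting error only.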

Additional observations from a re-analysis of the deposited data

Results flagged for a closer look

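In 2 of 40 tests of the members' samples within a group, 1 library lay farther from the others than Dixon's limit, and chance flags about 1 in 20 such groups. Only the LF and HFLF groups were tested, because the HF groups held 3 samples each. Klf2 measured 37.25 CPM in LF replicate 2 of batch 2, where the nearest sample had 33.24 CPM. Klf11 measured 23.85 CPM in LF replicate 4 of batch 1, where the nearest sample had 35.41 CPM.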

How the results depend on the processing

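Of 60 log2 differences of members within batches, 50 kept their sign under every setting run, and the other 10 turned only when 1 library was left out and were not called there. In batch 1, leaving out 1 library gave −0.111 to 0.0219 for Klf9, −0.0684 to 0.0745 for Klf13 and −0.0804 to 0.0139 for Klf3 between HFLF and LF, −0.0968 to 0.0306 for Klf6 between HF and LF, and −0.103 to 0.127 for Klf7 between HFLF and HF. In batch 2 it gave −0.0583 to 0.0223 for Klf4, −0.00929 to 0.0812 for Klf6, −0.0525 to 0.116 for Klf7 and −0.013 to 0.0548 for Klf9 between HFLF and LF, and −0.113 to 0.141 for Klf10 between HFLF and HF. Between HF and LF in batch 1, where edgeR called 0 members, DESeq2 called 2 and limma voom 5. Between HFLF and LF, where edgeR called 0, DESeq2 called 1 (Klf2) in batch 2 and in both batches, and limma voom and the fit of only the compared groups called 1 (Klf2) over both. Between HFLF and HF over both batches, where 2 were called, limma voom called 4 and the fit of only the compared groups 1. Without 1 library, the counts ranged from 0 to 4 (HF and LF, batch 1; 4 without HF replicate 2), 1 to 4 (HF and LF, batch 2), 1 to 4 (HFLF and HF, batch 2), 3 to 5 (HF and LF, both), 0 to 1 (HFLF and LF, both) and 1 to 4 (HFLF and HF, both). For batch 2, 1 member (Klf2) was left between HF and LF without LF replicate 1 or 3 or HF replicate 2 or 3, and between HFLF and HF without HF replicate 2 or 3. The cause was not tested.

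With the replicate block, 1 member (Klf2, log2 difference −1.57) was called between HF and LF in batch 1 and 1 (Klf2, −0.763) between HFLF and LF over both batches. Deviations of same-numbered samples of 1 batch and different diets correlated above 0.1 in 10 of 20 pairs, against 19 of 67 pairs with different numbers. The medians were 0.094 and −0.024. Between batches and within a diet, 4 of 11 same-numbered pairs exceeded 0.1, against 11 of 34 pairs with different numbers. The medians of these pairs were −0.052 and −0.0017. Whether the batches share mice was not tested. Not every same-numbered pair exceeded 0.1, but this does not settle whether the numbers pair the samples. The main fits did not pair them. RLE scaling and fits without the expression filter left each count of called members within 1.5 times. Lengths by the longest RefSeq-matched transcript, chosen after seeing the data, kept the order of members in LF samples.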
